A study of Mus musculus with 2 samples.

Results

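Typical immediate early genes are switched on within minutes of a growth factor, cytokine, antigen or stress signal, without the need for newly made protein. The 10 genes described here are Fos, Fosb, Fosl1, Jun, Junb, Atf3, Egr1, Nr4a1, Nr4a2 and Ier3. They were taken by gene symbol from the 35602 symbols of the count table, and all 10 were found. Of these, 9 encode transcription factors. Among them Fosl1 is also counted below as an AP-1 target, so the typical description may not hold for it. Ier3 is induced in the same early wave but encodes a regulator of cell survival and of ERK signalling, so the label of transcription factor does not cover it.

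The tissue was breast tumour of mice. One group was given acupuncture together with intraperitoneal injections of a PD-1 inhibitor, and the other the injections alone, so PD-1 blockade is shared by both. Each group is 1 bulk messenger RNA library, and the labels used here give neither the strain, age and tumour line nor whether a library pooled animals. The question is what acupuncture on top of PD-1 blockade does to tumour transcripts. With 1 library per group there is no replicate check and no p-value, and treatment, animal and library cannot be told apart.

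Proteins of the Fos family (Fos, Fosb, Fosl1) pair with those of the Jun family (Jun, Junb) to form AP-1, a dimer that binds DNA through a basic leucine zipper. Atf3 belongs to the same zipper class and is a stress-induced regulator that often represses its targets. Egr1 is a zinc finger factor, and Nr4a1 and Nr4a2 are orphan nuclear receptors. In T cells Nr4a genes are induced by antigen receptor signalling, and in tumours AP-1 is known as an output of the RAS and ERK pathway.

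Total counts were 60752043 in the acupuncture library and 105728292 in the library of PD-1 inhibitor alone, a 1.74-fold difference in depth. Counts were scaled to counts per 1000000 (CPM) of library sizes corrected by TMM factors. Every ratio has the acupuncture library on top. Each ratio carries a 95% interval for counting error only. Genes with 20 or more counts over both libraries together were compared, 18687 in all. A difference of 2-fold or more with an interval that leaves out 1 put a gene on the list of higher or lower genes. All 10 genes passed that minimum. Of all genes compared, 9.21% were listed as higher and 4.9% as lower, 14.1% in all.

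The upstream sequence of 5 of the genes is printed because these hold the 3 listed as higher with acupuncture (Fos, Fosb, Nr4a1) and the 2 with the lowest ratios (Junb, Ier3). Each is the run of 250 bases that ends just before the annotated RefSeq start, on the gene's own strand, in build GRCm38.p6. Capitals mark the letters TGACG on either strand, the core of the cyclic AMP response element bound by CREB and ATF factors, and in Fos also the TATA box (TATAAA, forward strand).
Fos: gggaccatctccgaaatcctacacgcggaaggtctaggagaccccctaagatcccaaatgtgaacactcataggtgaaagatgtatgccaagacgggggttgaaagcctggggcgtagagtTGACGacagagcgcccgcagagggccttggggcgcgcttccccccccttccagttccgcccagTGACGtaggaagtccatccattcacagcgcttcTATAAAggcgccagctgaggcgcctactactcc
Fosb: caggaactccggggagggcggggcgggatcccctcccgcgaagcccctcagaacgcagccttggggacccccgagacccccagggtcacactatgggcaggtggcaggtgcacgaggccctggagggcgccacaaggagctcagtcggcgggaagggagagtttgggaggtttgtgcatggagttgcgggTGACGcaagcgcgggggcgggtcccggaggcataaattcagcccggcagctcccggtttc
Nr4a1: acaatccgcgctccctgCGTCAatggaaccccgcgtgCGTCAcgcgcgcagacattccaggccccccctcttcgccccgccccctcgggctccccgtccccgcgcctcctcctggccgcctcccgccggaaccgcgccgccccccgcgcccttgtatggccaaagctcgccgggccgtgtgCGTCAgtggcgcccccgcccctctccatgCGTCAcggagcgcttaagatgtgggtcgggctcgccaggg
Junb: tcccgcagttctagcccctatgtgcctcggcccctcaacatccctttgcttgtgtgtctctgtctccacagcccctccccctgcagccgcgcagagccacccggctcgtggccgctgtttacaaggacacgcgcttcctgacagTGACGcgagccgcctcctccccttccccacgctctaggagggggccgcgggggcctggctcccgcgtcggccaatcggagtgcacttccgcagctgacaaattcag
Ier3: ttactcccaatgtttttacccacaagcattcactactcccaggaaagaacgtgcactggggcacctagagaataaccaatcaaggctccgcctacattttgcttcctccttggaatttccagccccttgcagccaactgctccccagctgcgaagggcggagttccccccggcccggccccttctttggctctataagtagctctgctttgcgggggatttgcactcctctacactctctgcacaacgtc

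The windows lie at chr12:85473640-85473889 on the plus strand for Fos, chr7:19310046-19310295 on the minus strand for Fosb, chr15:101266596-101266845 on the plus strand for Nr4a1, chr8:84978749-84978998 on the minus strand for Junb and chr17:35821463-35821712 on the plus strand for Ier3. Fos held 2 cores, which begin 129 and 66 bases before the start, and a TATA box 33 bases before it. Nr4a1 held 4 cores, beginning 233, 213, 69 and 40 bases before its start, and Nr4a2 also held 4. Fosb, Junb and Atf3 held 1 core each, and no TGACG was in the windows of Jun and Ier3. Thus 6 of the 8 genes with a window in the table held the core, against 17.8% of all 32851 windows of that length, of which some genes have several. GC boxes (GGGCGG on either strand), whose letters differ from the core, were in 7 of the 8 windows against 32.7% of all, and windows with a GC box held the core more often, in 25.8%, than those without, in 13.9%. Neither the full element TGACGTCA, which would contain 2 cores, nor the AP-1 letters TGANTCA, the EGR letters GCGTGGGCG, the Nr4a letters AAAGGTCA or a CArG box was in any of the 8 windows. These 5 motifs were in 1.55%, 6.75%, 0.536%, 1.34% and 1.47% of all windows. Near matches were not counted. The Jun window held TGACATCA, which is close to the full element but matches none of the letters searched. Fosl1 and Egr1 had no window, so nothing is known here of their motifs, the CArG box of Egr1 included. Bases farther upstream than the windows were not searched, so a motif absent from a window may still lie near the gene. The core was in Fos, Fosb and Nr4a1, listed as higher, and in Atf3 and Nr4a2, with ratios above 1. Junb, with a ratio below 1, also held it. It was absent from Ier3, listed as lower, and from Jun, with a ratio below 1. Whether cores bear on direction was not tested.

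Immediate early messages are also known for rapid decay through AU-rich elements in the 3′ untranslated region. Each of the 10 genes held the pentamer ATTTA in its annotated 3′ untranslated region (GENCODE M21). Of 7016 compared genes with regions in the same range of lengths, 73.97% held it. The median was 3 copies in the 10 genes and 1 in those 7016 genes. The nonamer TTATTTATT was found in Fos alone, against 6.542% of those genes. It is printed with 8 flanking bases as the letters that the decay factor Zfp36 is known to prefer.
Fos: ttttcaatTTATTTATTaagatgga

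The genes did not differ as a block. Fos, Fosb and Nr4a1 were listed as higher with acupuncture, Ier3 was listed as lower, and the other 6 lay between. The shares are 3 of 10 against 9.21% of all genes and 1 of 10 against 4.9% of all genes, counts too small to set apart from the background. The median log2 ratio of the 10 was 0.36, against 0.0003 over all genes compared. Their summed level was 695 scaled CPM with acupuncture and 889 with PD-1 inhibitor alone, a ratio of 0.781. The median and the sum point in opposite directions because Junb, Ier3 and Jun carry most of the counts and had ratios below 1.

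**Figure D1:**
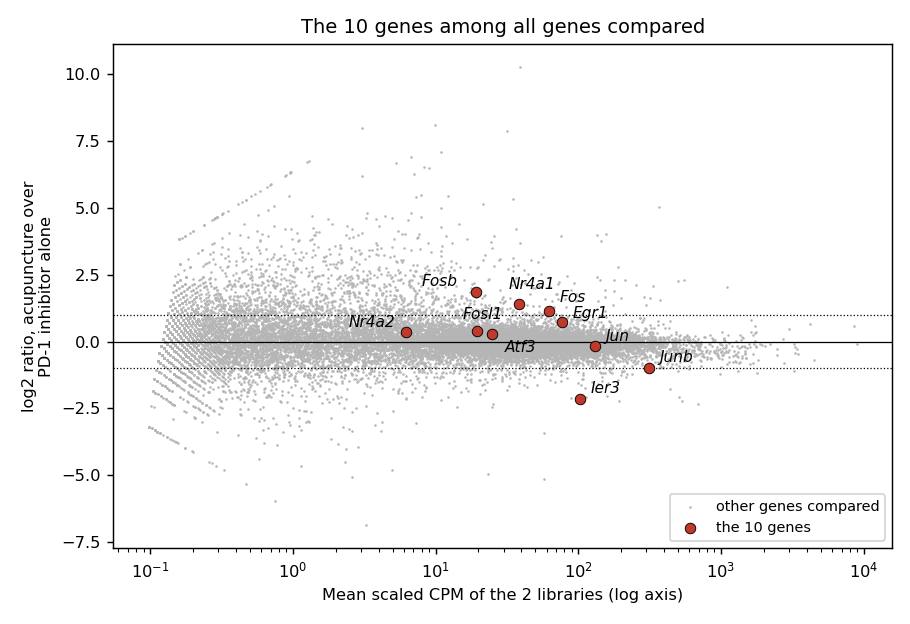
Log2 ratio (acupuncture over PD-1 inhibitor alone) against mean scaled CPM (log axis) for the 18687 genes compared, with the 10 immediate early genes in red and dotted lines at 2-fold. Fosb, Nr4a1 and Fos lie above the upper line, Ier3 lies below the lower line at -2.13, and Junb lies on it at -0.98.

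Fos, the founding member of its family and a partner of all Jun proteins, had 5373 counts in the acupuncture library and 3931 in the library of PD-1 inhibitor alone. That is 85.4 scaled CPM with acupuncture and 38.5 with PD-1 inhibitor alone, 2.22-fold higher (2.13 to 2.31). Fosb, whose protein likewise needs a Jun partner, had 1902 counts with acupuncture and 844 with PD-1 inhibitor alone. Its level was 30.2 scaled CPM with acupuncture and 8.27 with PD-1 inhibitor alone, 3.66-fold higher (3.37 to 3.97). This was the highest ratio of the 10, and 3.64% of all genes compared had a higher log2 ratio than Fosb. Fosl1 (Fra-1), associated with invasive mammary tumour cells, differed less, with 1395 counts in the acupuncture library and 1737 in that of PD-1 inhibitor alone. Its 22.2 scaled CPM with acupuncture and 17.0 with PD-1 inhibitor alone give a ratio of 1.30 (1.21 to 1.40), short of 2-fold.

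The Jun genes lay on the other side. Junb, a Jun protein that often restrains Jun activity, was the most abundant of the 10 in both libraries, with 13191 counts in the acupuncture library and 42289 in that of PD-1 inhibitor alone. It stood at 209.7 scaled CPM with acupuncture and 414.2 with PD-1 inhibitor alone, 1.98-fold lower (1.94 to 2.02). That is just short of the limit, and with DESeq2 size factors its log2 ratio of -1.003 passed it. Centred on epithelial genes the log2 ratio of Junb was -0.44, farther from the limit. Jun itself had 7728 counts with acupuncture and 14041 with PD-1 inhibitor alone. Its 122.8 scaled CPM with acupuncture and 137.5 with PD-1 inhibitor alone give a ratio of 0.893 (0.868 to 0.918), and the sign turned, to a log2 ratio of 0.38, when ratios were centred on epithelial genes. Atf3 was at 27.6 scaled CPM with acupuncture (1734 counts) and 22.5 with PD-1 inhibitor alone (2296 counts), a ratio of 1.23 (1.15 to 1.30).

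Egr1, which is induced through serum response factor and regulates growth and repair genes, had 6027 counts with acupuncture and 5843 with PD-1 inhibitor alone. Its level was 95.8 scaled CPM with acupuncture and 57.2 with PD-1 inhibitor alone, 1.67-fold higher (1.61 to 1.74) and short of the 2-fold limit. Centred on epithelial genes its log2 ratio was 1.29 and passed the limit. Nr4a1 (Nur77), widely used as a reporter of antigen receptor signalling, had 3528 counts with acupuncture and 2131 with PD-1 inhibitor alone. Its level was 56.1 scaled CPM with acupuncture and 20.9 with PD-1 inhibitor alone, 2.69-fold higher (2.54 to 2.84). Its paralogue Nr4a2 (Nurr1) was the least counted of the 10, with 438 counts in the acupuncture library and 559 in that of PD-1 inhibitor alone, and had a ratio of 1.27 (1.12 to 1.44). Reads of Nr4a1 outnumbered those of Nr4a2 by 8.05 to 1 with acupuncture and by 3.81 to 1 with PD-1 inhibitor alone.

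Ier3 (IEX-1), known as a target of NF-kappaB, p53 and growth factor signals, differed most. It had 2411 counts in the acupuncture library and 17127 in that of PD-1 inhibitor alone. Its level was 38.3 scaled CPM with acupuncture and 167.8 with PD-1 inhibitor alone, 4.38-fold lower (4.20 to 4.57), and 0.915% of all genes compared had a lower log2 ratio.

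**Figure D2:**
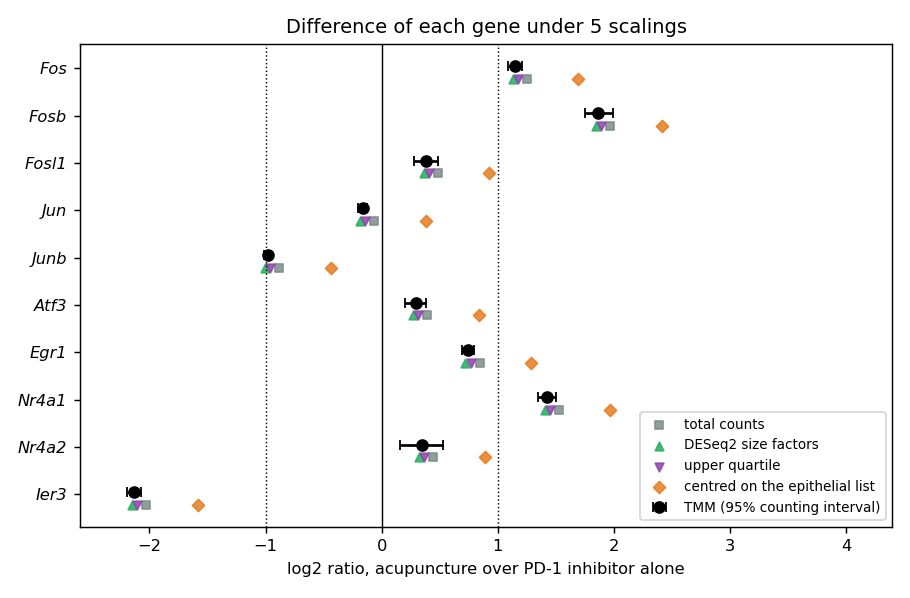
Log2 ratio of acupuncture over PD-1 inhibitor alone for each gene under the main TMM scaling (black, with 95% counting intervals) and under 4 other scalings, with dotted lines at 2-fold. Fos, Fosb and Nr4a1 stay above the upper line and Ier3 below the lower line under each scaling shown, Jun changes sign and Egr1 passes the upper line when centred on the epithelial list, and Junb passes the lower line with DESeq2 size factors.

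Ratios between genes of the same library do not depend on how libraries are scaled. Of the 45 pairs that the 10 genes form, 42 had proportions that differed between the libraries by more than counting error, and 26 by at least 2-fold. Over all pairs of the 11329 genes with at least the 997 counts of Nr4a2, 82.5% differed by more than counting error and 11.2% by at least 2-fold, so the first count is near that of any genes at this depth. The 26 pairs rest largely on Ier3, Junb and Fosb, and are given as a description. Fosb per Ier3 read was 0.789 with acupuncture and 0.0493 with PD-1 inhibitor alone, a shift of 16.0-fold (14.6 to 17.5). Within AP-1, Fosb per Junb read shifted 7.22-fold (6.65 to 7.85), with 0.144 in the acupuncture library and 0.01996 in that of PD-1 inhibitor alone. Fos per Junb read shifted 4.38-fold (4.19 to 4.59) and Fos per Jun read 2.48-fold (2.36 to 2.61). The 3 pairs whose intervals held 1 were those among Fosl1, Atf3 and Nr4a2, with Fosl1 per Nr4a2 read at a shift of 1.02 (0.888 to 1.18). Many pairs share a gene and are not independent of each other.

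Levels were compared between genes per kb of exon, with lengths from GENCODE M21 (build GRCm38), so they are approximate where several transcripts exist. In the acupuncture library Junb was first at 91.1 scaled CPM per kb, followed by Jun at 38.5, Fos at 36.3, Ier3 at 33.9, Egr1 at 21.4, Nr4a1 at 16.0, Atf3 at 12.8, Fosl1 at 10.9, Fosb at 4.84 and Nr4a2 at 1.72. With PD-1 inhibitor alone Junb was first at 180.0 scaled CPM per kb, followed by Ier3 at 148.3, Jun at 43.1, Fos at 16.4, Egr1 at 12.8, Atf3 at 10.4, Fosl1 at 8.37, Nr4a1 at 5.95, Nr4a2 at 1.35 and Fosb at 1.32. The last pair, Nr4a2 and Fosb, had overlapping counting intervals there. No neighbours overlapped in the acupuncture library, though Fos (35.3 to 37.3) and Ier3 (32.5 to 35.3) came close. Ier3 held rank 4 with acupuncture and rank 2 with PD-1 inhibitor alone. Nr4a1 lay above Atf3 and Fosl1 with acupuncture and below them with PD-1 inhibitor alone.

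**Figure D3:**
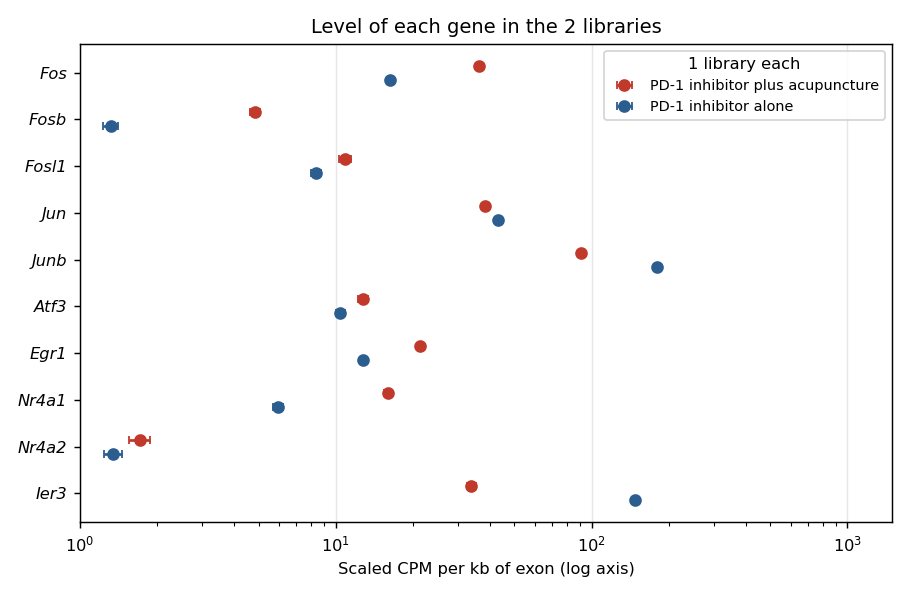
Scaled CPM per kb of exon (log axis) for each gene in the library of PD-1 inhibitor plus acupuncture (red) and that of PD-1 inhibitor alone (blue), with 95% Poisson intervals of the counts. The red point lies right of the blue for 7 genes and left of it for Jun, Junb and Ier3, with the widest gap for Ier3 at 33.9 and 148.3 scaled CPM per kb.

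The make-up of the Fos and Jun transcripts differed between the libraries. With Fosl2 and Jund, the family members outside the 10, the Fos family made up 20.6% of the summed level per kb of the 7 genes with acupuncture and 8.76% with PD-1 inhibitor alone. Of the raw reads of these genes it took 31.7% with acupuncture (15128 of 47784, exact binomial interval 31.2% to 32.1%) and 18.6% with PD-1 inhibitor alone (20602 of 110469, 18.4% to 18.9%). Fos by itself was 11.9% of the summed level per kb with acupuncture and 3.56% with PD-1 inhibitor alone. Jund, the constitutive Jun gene, was 36.8% with acupuncture and 42.8% with PD-1 inhibitor alone, and Junb was 29.96% with acupuncture and 39.1% with PD-1 inhibitor alone. Fosl2 took like shares, 3.49% with acupuncture and 3.10% with PD-1 inhibitor alone. Its own ratio was 0.744 (0.722 to 0.766), below 1, unlike those of Fos, Fosb and Fosl1. The Fos family summed to 62.7 scaled CPM per kb with acupuncture and 40.3 with PD-1 inhibitor alone. The Jun family summed to 241.5 with acupuncture and 420.1 with PD-1 inhibitor alone, so the shares reflect both differences.

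**Figure D4:**
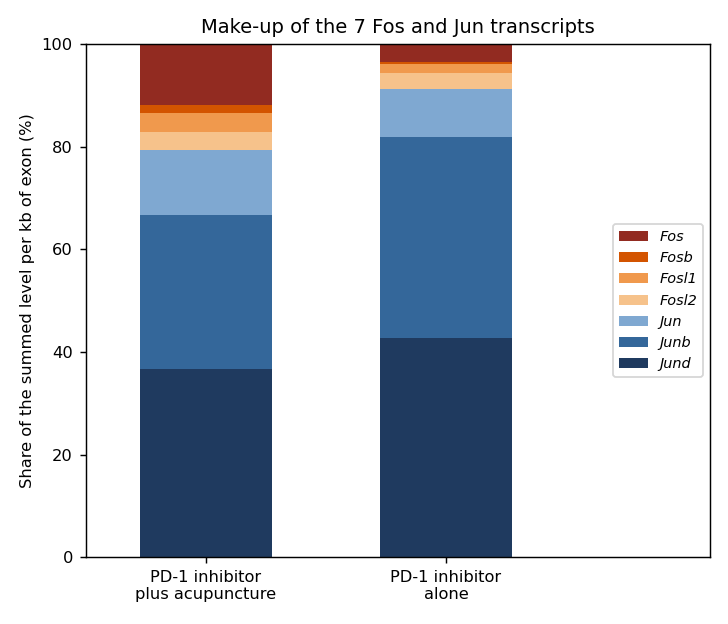
Share of the summed level per kb of exon held by each of the 7 Fos and Jun transcripts (percent) in the library of PD-1 inhibitor plus acupuncture (left) and that of PD-1 inhibitor alone (right). The Fos family (orange to dark red) takes 20.6% on the left and 8.76% on the right, and Junb and Jund fill most of both bars.

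Few other genes of the same families and of the pathway around them were listed as higher or lower. Of 11 further AP-1 and zipper partners, 1 was listed as higher and none as lower, with a median log2 ratio of -0.01 that turned to 0.09 with total counts. The gene listed was Batf2, an interferon-induced zipper protein, at 18.7 scaled CPM with acupuncture and 4.53 with PD-1 inhibitor alone, 4.13-fold higher (3.71 to 4.61). Jund was 1.76-fold lower (log2 ratio -0.82) and short of the limit. Of the 6 further Egr, Nr4a and Nab genes 5 could be compared and none was listed, with a median of 0.13. Egr3, an effector of antigen receptor signalling in lymphocytes, came closest at 12.7 scaled CPM with acupuncture and 6.50 with PD-1 inhibitor alone, 1.95-fold higher (1.76 to 2.17), and with total counts as the scaling it passed 2-fold, at a log2 ratio of 1.06. Nr4a3, named after its value was seen, was 1.73-fold higher (1.49 to 2.02). Centred on the epithelial list, Egr3 (log2 ratio 1.51) and Nr4a3 both passed the 2-fold limit. Nab1 and Nab2, co-repressors that Egr proteins recruit, were at 0.966 and 0.818 times their levels with PD-1 inhibitor alone. With that centring their log2 ratios turned positive, to 0.50 and 0.26.

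Of 24 other immediate early transcription regulators none was listed as higher and 3 as lower, with a median of -0.14. Those lower were Hes1, a Notch-responsive repressor, at 2.30-fold, with Bhlhe40 and Ier2 at log2 ratios of -1.04 and -1.005. With total counts Hes1 alone of these 3 was listed. Centred on the epithelial list none of the 24 was listed as lower and 2 were as higher, Irf1 at a log2 ratio of 1.42 and Klf4, which is named after its value was seen. Irf1, an interferon-induced factor, had the highest log2 ratio of that list in the main scaling, at 0.88. Among 30 early induced effectors 2 were listed as higher and 2 as lower, with a median of -0.11. The GTPase Gem was 2.28-fold higher (2.03 to 2.58) and the G protein regulator Rgs1 2.09-fold lower, which came to a log2 ratio of -0.96, short of the limit, with total counts. The other 2 were Arc, at 79 counts with acupuncture and 60 with PD-1 inhibitor alone, and the EGF receptor ligand Ereg, at 25 counts with acupuncture and 84 with PD-1 inhibitor alone, which like Rgs1 missed the limit with total counts. Arc, Ereg, Bhlhe40 and Ier2 are named after their values were seen. None of 16 ERK feedback genes (Dusp phosphatases, Sprouty and Spred genes) and none of 21 upstream kinases and SRF, TCF and CREB factors was listed, with medians of -0.22 and -0.11. With total counts 1 of the 16, the lymphocyte phosphatase gene Dusp2, reached 2-fold and was higher. Dusp6, a phosphatase that tracks ERK activity, was at 0.777 times its level with PD-1 inhibitor alone. Centred on the epithelial list its log2 ratio turned positive, to 0.18. The kinase gene Mapk3 (ERK1) was 1.96-fold lower (log2 ratio -0.97). Medians between -0.55 and 0 in these lists turn positive when ratios are centred on the epithelial list, which adds 0.55 to every log2 ratio.

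Genes taken here as AP-1 targets lay lower. Of 16 measured, 8 were listed as lower with acupuncture and none as higher, with a median log2 ratio of -0.93, against 4.9% of all genes listed as lower. This list and the others below were chosen with earlier results of these data known, so their shares are a description only. Centred on the epithelial list, 2 of the 16 were listed as lower and the median was -0.38. Hmox1, which degrades haem, was 4.12-fold lower, at 61.6 scaled CPM with acupuncture and 254.2 with PD-1 inhibitor alone. The collagenase Mmp13 and the stromelysin Mmp3, named after their values were seen, had log2 ratios of -1.38 and -1.09, and Mmp3 missed the limit with total counts at -0.99. Vim, the most abundant of the list by its mean over both libraries, was at 0.734 times its level with PD-1 inhibitor alone. Its log2 ratio turned positive, to 0.10, when centred on the epithelial list. Spp1 was the most abundant with PD-1 inhibitor alone and was listed as lower, at a log2 ratio of -1.10. Fosl1, itself 1 of the 10, had the highest ratio there. The list of 12 ATF4 and ATF3 stress genes had 2 higher and 1 lower, with a median of -0.04 that was 0.06 with total counts. Vldlr, a lipoprotein receptor, was 2.74-fold higher and Ddit4, an mTOR inhibitor also induced by hypoxia, 2.81-fold lower, though at -0.95 on the log2 scale when centred on the epithelial list. Of 14 hypoxia genes, 2 of them shared with these lists, 10 were listed as lower and none as higher, at a median of -1.18, and their summed level was 2950 scaled CPM with acupuncture and 6167 with PD-1 inhibitor alone. Centred on the epithelial list 3 of the 14 were listed as lower. Of 12 heat shock genes 3 were lower, none higher, at a median of -0.18. Hspa1a, an inducible chaperone, was 5.49-fold lower, though its reads may be shared with its near-identical copy Hspa1b, which had a log2 ratio of -2.10. The part that hypoxia and heat shock signals have in the values of the 10 genes was not tested.

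**Figure D5:**
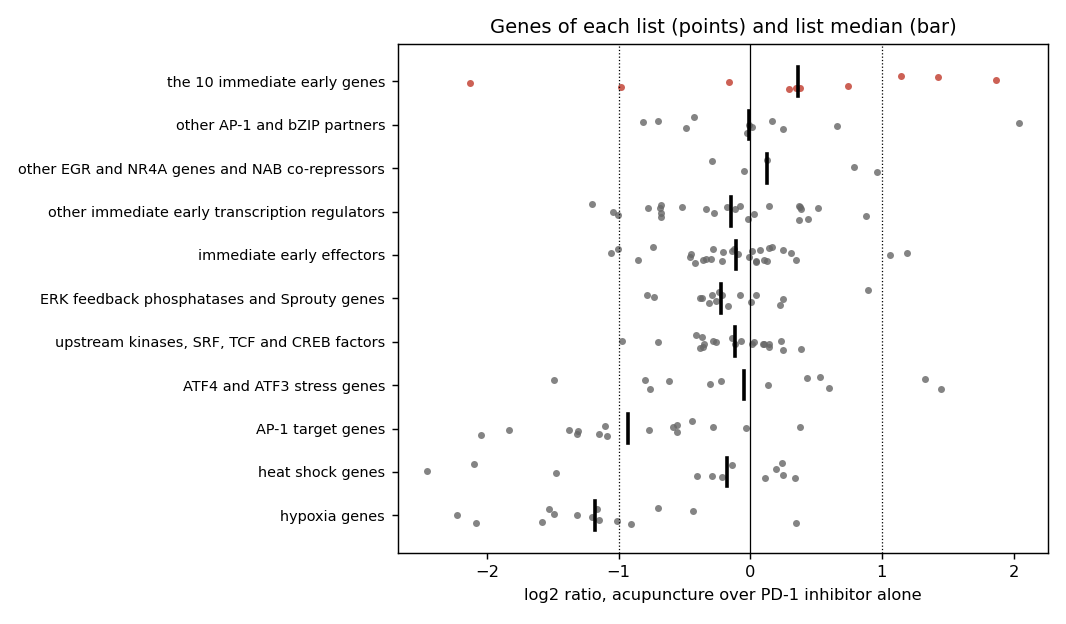
Log2 ratio of acupuncture over PD-1 inhibitor alone for each gene (points) of the 10 immediate early genes and 10 related lists, with a bar at each median and dotted lines at 2-fold. The 10 genes spread from -2.13 to 1.87 around a median of 0.36, and the medians of AP-1 targets (-0.93) and hypoxia genes (-1.18) lie farthest to the left.

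In bulk tissue fewer cells of a type and less RNA per cell cannot be told apart, and the libraries differed in tissue content. Several marker lists were higher in the same library as Fos, Fosb and Nr4a1. T cell markers had 15 of 15 listed as higher, at a summed level of 211.5 scaled CPM with acupuncture and 37.4 with PD-1 inhibitor alone. B cell markers had 10 of 10 higher, at 145.5 scaled CPM with acupuncture and 4.07 with PD-1 inhibitor alone. Of the adipocyte markers 12 of 13 were higher, at 2140 scaled CPM with acupuncture and 569 with PD-1 inhibitor alone. Of the skeletal muscle markers 11 of 12 were higher, at 2238 scaled CPM with acupuncture and 238 with PD-1 inhibitor alone. Lymph node stroma had 9 of 10 higher, at 216.7 scaled CPM with acupuncture and 29.2 with PD-1 inhibitor alone. None of these markers was at 0 with acupuncture, and those at 0 with PD-1 inhibitor alone were the B cell gene Fcmr and the lymph node genes Chst4 and Fcamr. Markers of neutrophils (8 of 10 listed as lower, 33.6 scaled CPM with acupuncture and 244.3 with PD-1 inhibitor alone) were lower in the same library as Ier3 and Junb, with none at 0. Macrophage markers had 1 of 10 lower, at 2456 scaled CPM with acupuncture and 3223 with PD-1 inhibitor alone. Epithelial markers, which check the labelled tumour tissue, had 3 of 16 lower and none at 0, at 3069 scaled CPM with acupuncture and 4454 with PD-1 inhibitor alone, with the luminal keratin Krt8 the most abundant. Fibroblast markers had 1 of 10 higher, at 10574 scaled CPM with acupuncture and 8052 with PD-1 inhibitor alone. Endothelial markers had none of 10 listed, at 233 scaled CPM with acupuncture and 318.7 with PD-1 inhibitor alone. Nerve and Schwann cell markers had 2 of 10 higher, at 189.1 scaled CPM with acupuncture and 163.4 with PD-1 inhibitor alone. The part of these cell types in the values of the 10 genes was not tested.

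Overlapping genes bear on 3 of the 10, since the strand setting of the counts is not given in the sources used here. Fosl1 overlaps Ccdc85b by 2767 bases, Jun overlaps its antisense RNA Junos by 689 bases and Junb overlaps Prdx2 by 351 bases, each on the opposite strand, in GENCODE M21. Ccdc85b had 5428 counts with acupuncture and 11963 with PD-1 inhibitor alone, more than Fosl1 in both libraries, and a ratio of 0.736. Junos had a ratio of 0.735 and Prdx2 a ratio of 0.742. These overlaps are of whole gene spans, introns included, and that of Fosl1 exceeds its 2.033 kb of exon. How much of each is exon of both genes was not measured. Reads from exonic parts of the shared stretches cannot be told apart without strand.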

How the data were processed

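The deposited table holds raw counts for each gene symbol, in whole numbers and not normalized, with 1 column per library. Genome builds GRCm39 and mm39 are named in the submitters' processing notes; no aligner, counting program or strand setting is stated in these sources. RNA was column-purified and libraries were made with a SMARTer kit for messenger RNA, per the labels' protocols. The table held 35602 symbols and 0 lines naming no gene.

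TMM factors (1.036 with acupuncture, 0.966 with PD-1 inhibitor alone) came from edgeR 4.0.16 in R 4.3.3 over genes with 20 or more counts in both libraries together. CPM is per 1000000 of scaled library size, and log2 ratios carry a prior count of 2. Intervals of ratios are exact Clopper-Pearson 95% intervals of the split of the combined count, and those of pairs use the normal approximation on the log scale. Because reads carry no molecular identifiers they may repeat a molecule, and intervals cover counting error only. No test was run, as each group has 1 library. The calculation was run on simulated Poisson counts without variation between animals, which checks the code only.

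The members and 21 other lists were chosen with earlier results of these data known. Named genes were all 10 members, per list the most abundant gene and those with the highest and lowest log2 ratio, and listed genes of the AP-1, EGR and NR4A lists; any further name was picked with its value in view. Other scalings (DESeq2 1.42.0 size factors among them), prior counts, count minimums and fold limits and a thinned deeper library were tried. Promoters are from RefSeq (GRCm38.p6), lengths and untranslated regions from GENCODE M21. Coordinates are in that older build, not in the authors'. Of the 10 genes, 8 had a promoter window used. Calculations used Python 3.11.15 with scipy 1.17.1 and pandas 2.3.3, and plots matplotlib 3.10.9.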

Additional observations from a re-analysis of the deposited data

How the results depend on the processing

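No paired analysis was possible because each group holds 1 library. Fos, Fosb and Nr4a1 stayed listed as higher and Ier3 as lower under total counts, DESeq2 size factors, upper quartile factors, totals without the 10 most abundant genes, centring on the epithelial list and thinning of the deeper library. Prior counts of 0.5 and 5, combined counts of at least 1 and 100, a 1.5-fold limit and the 2-fold limit without the interval could not remove a call of these genes by their construction, and say nothing of stability. At a 4-fold limit 0 of the 10 genes were listed as higher and Ier3 alone as lower. The number listed as lower was 2, with Junb added, under DESeq2 size factors and at the 1.5-fold limit. The number listed as higher was 4, with Egr1 added, at the 1.5-fold limit and centred on the epithelial list. The median log2 ratio of the 10 genes was 0.91 centred on the epithelial list, against 0.36 in the main scaling, because that centring adds 0.55 to every log2 ratio. Total counts moved the median of all genes by 0.10.

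Over all genes 1721 were listed as higher and 916 as lower. Centred on the epithelial list these were 3607 and 354, so that 91.1% of listed genes were higher against 65.3%. They were 2679 and 1933 at the 1.5-fold limit, 678 and 262 at the 4-fold limit, and 1055 and 500 with a combined count of at least 100. Depth does not limit the 10 genes, the least counted of which had 997 reads in both libraries together, but counting intervals hold no variation between animals.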
